A study of Mus musculus with 6 samples.

Results

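The 7 genes described here, Hmgcs1, Idi1, Fdps, Fdft1, Sqle, Lss and Cyp51, encode enzymes of cholesterol synthesis that the transcription factor SREBP2 controls. They were taken by symbol from the gene count table, which lists 22032 genes, and all 7 were among the 14632 genes with enough counts to test. The samples are temporomandibular joint tissue, the joint between the jaw and the skull, of mice aged 10 weeks. Igf2bp2 knockout (KO) mice, with 3 libraries, were compared with wild-type (WT) littermates, also with 3 libraries. The IGF2BP2 protein binds mRNA at methylated adenosines, and the series title ties it to bone loss under the joint cartilage. The labels give neither the part of the gene that is deleted nor whether the deletion is limited to a cell type, and they do not say that each library is a separate animal. A p-value here thus compares the genotypes with a spread between samples that may be only technical.

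Cholesterol is built from acetyl-CoA by way of mevalonate, which is turned into isoprenoid units that are joined to squalene and closed into the sterol ring. When sterols in the endoplasmic reticulum run low, the escort protein SCAP carries SREBP2 to the Golgi, where it is cut, and the released fragment binds sterol regulatory elements in promoters, usually next to sites of NF-Y and SP1. INSIG proteins hold SCAP back when sterols are high. Most nucleated cells run this pathway, and myelinating Schwann cells, steroid-making cells and lipid-secreting glands are known to run it strongly.

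The upstream promoter letters are shown for the 3 genes whose difference passed in every alternative tried. Sqle and Lss fell by like amounts on fewer counts (log2 fold changes, KO minus WT, of -1.08 and -1.03). Each run is the 250 bases before the RefSeq start on GRCm38.p6, read on the strand of the gene. Capitals mark matches, on either strand, to TCACNCCAC (the core of a sterol regulatory element), CCAAT (the NF-Y box) or GGGCGG (the GC box of SP1).
Hmgcs1, chr13:119690101-119690350, plus strand: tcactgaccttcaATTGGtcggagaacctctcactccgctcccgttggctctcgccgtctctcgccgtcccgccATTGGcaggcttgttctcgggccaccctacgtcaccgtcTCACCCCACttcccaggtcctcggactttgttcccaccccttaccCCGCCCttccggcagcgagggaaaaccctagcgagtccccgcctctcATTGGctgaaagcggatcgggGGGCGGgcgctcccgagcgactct
Idi1, chr13:8885356-8885605, plus strand: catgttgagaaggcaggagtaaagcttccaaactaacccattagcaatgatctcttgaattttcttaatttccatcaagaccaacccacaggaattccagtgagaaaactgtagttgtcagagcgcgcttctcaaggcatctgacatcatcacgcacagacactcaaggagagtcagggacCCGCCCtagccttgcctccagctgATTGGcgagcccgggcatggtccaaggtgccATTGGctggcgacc
Cyp51, chr5:4104698-4104947, minus strand: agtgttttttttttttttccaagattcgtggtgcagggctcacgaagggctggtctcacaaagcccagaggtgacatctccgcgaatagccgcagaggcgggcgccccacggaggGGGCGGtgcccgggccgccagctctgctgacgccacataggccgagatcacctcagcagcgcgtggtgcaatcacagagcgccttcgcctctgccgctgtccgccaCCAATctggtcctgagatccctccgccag

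RefSeq promoters were matched for 4 of the 7 genes, these 3 and Lss. The core of the sterol regulatory element was in the Hmgcs1 window alone of the 4, as TCACCCCAC from base 137 to base 129 before the start, and it is in 1.05% of all 32841 promoter windows of that length. The NF-Y box was in all 4, against 33.9% of all windows, and the GC box in all 4, against 32.7%. The E-box CACGTG was in 0 of the 4, against 6.02% of all windows. A match is a run of letters and not a measured binding site, and the absence of a match says only that these letters are not in that window.

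The libraries held 28551236 to 35094127 counts each. The mitochondrial share was 85.3% to 86% in KO and 90.6% to 90.8% in WT, so nuclear genes rest on 2625472 to 4899680 counts. Igf2bp2 had 13, 14 and 10 counts in KO and 38, 20 and 24 in WT, and edgeR put its log2 fold change, KO minus WT, at -1.80 (standard error, SE, 0.39, false discovery rate, FDR, 0.00589). Within groups, KO 1 and KO 3 differed by less than counting noise in the median gene, and so did WT 2 and WT 3. Either pair was summed to 1 sample, which leaves n = 2 samples a group. Joint cartilage markers were low, with a summed level of 15.3 to 19.3 CPM (counts scaled to a common library size) in KO and 16.4 to 17.8 in WT over 7 genes, and Col9a1 had no count in KO 1. Of the 6 tested cartilage markers Col11a1 rose (log2 fold change 0.63, FDR 0.0116) and 5 did not pass, with a median log2 difference of -0.25. Bone markers summed to 562 to 637 CPM in KO and 276 to 319 in WT, most of it Col1a1 (mean 528 CPM in KO and 245 in WT). Of the 8 bone markers 2 rose, Runx2 fell (log2 fold change -1.39, FDR 0.000318) and 5 did not pass, with a median log2 difference of -0.23. Synovial lining markers summed to 57.5 to 65.6 CPM in KO and 20.4 to 23.9 in WT, most of it Prg4 (mean 46 CPM in KO and 11.3 in WT). Of the 6 synovial markers 3 rose and 3 did not pass. Of all tested genes 8.48% passed an FDR of 0.05 by edgeR as lower and 9.15% as higher. In bulk tissue, fewer cells of a type and less RNA per cell cannot be told apart.

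The 7 genes were lower in KO than in WT joints. Together they had 1085, 1202 and 1142 counts in KO and 1485, 1316 and 1531 in WT, which is 0.0236%, 0.0245% and 0.0244% of the nuclear counts in KO and 0.0463%, 0.0501% and 0.0516% in WT. Each of the 7 genes had a lower level in all 3 KO libraries than in any WT library, a pattern that 19.2% of all tested genes showed. By edgeR's quasi-likelihood test 6 of the 7 passed an FDR of 0.05 as lower, all but Fdft1, beside 8.48% of tested genes that passed as lower, 9.15% as higher and 17.6% in either direction. Their median log2 fold change was -1.08, against -0.01 over all tested genes. Without KO 2, which leaves KO with 1 sample and its spread assumed like that of WT, 3 of the 7 passed (Hmgcs1, Idi1 and Cyp51), and with library size as the only scaling also 3. That scaling uses library sizes that include the mitochondrial counts, and puts the median log2 fold change of all genes at 0.54. Under it Fdft1 had a log2 difference of 0.15, still below that median.

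**Figure D1:**
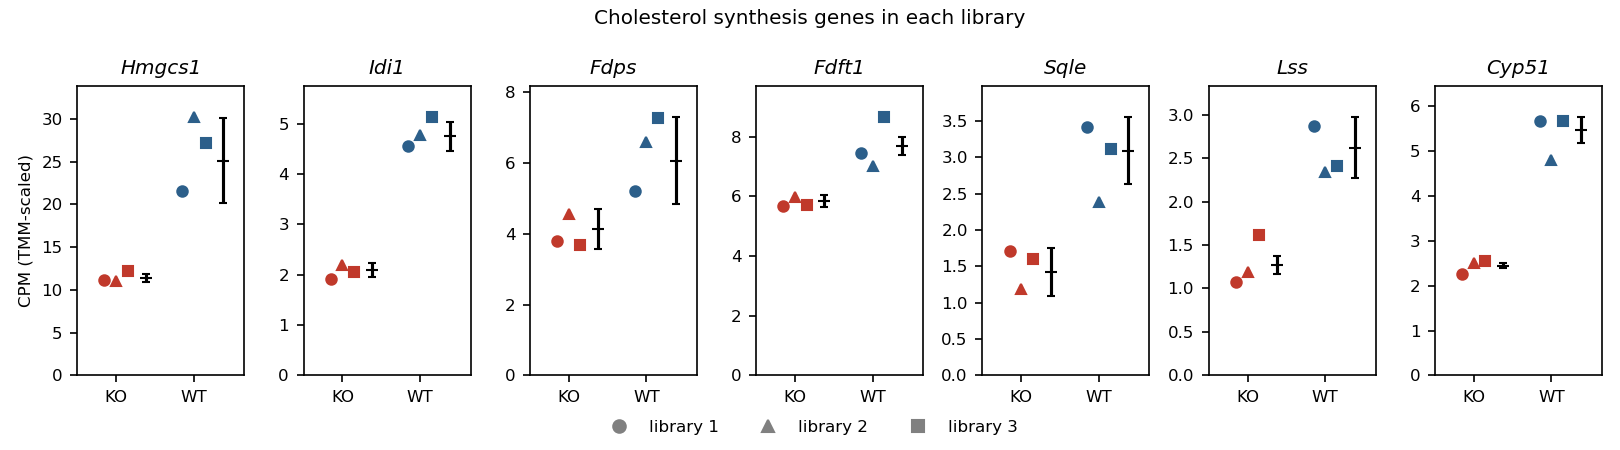
Level of each of the 7 genes in CPM (linear axes from 0), KO left of WT, with 1 symbol per library and the mean ± SD of the 2 samples of each group as a bar. In every panel the 3 KO libraries lie below the 3 WT libraries, and relative to the WT level the distance is greatest in Idi1, Cyp51 and Hmgcs1 and smallest in Fdps and Fdft1.

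Hmgcs1 and Idi1 act before the isoprenoid units are joined. Hmgcs1, the cytosolic synthase that makes HMG-CoA for the mevalonate pathway, was the most abundant of the 7, with 440, 463 and 473 counts in KO and 632, 684 and 701 in WT. Scaled to library size with trimmed mean of M-values factors, this was 11.2, 11.0 and 12.2 CPM in KO and 21.6, 30.2 and 27.2 in WT. The KO libraries lay close together and the WT libraries were spread, with WT 1 the lowest of them. Group means of Hmgcs1 were 11.4 ± 0.471 CPM in KO, against 25.1 ± 4.94 CPM in WT (SD, n = 2 each), and the log2 fold change was -1.15 (SE 0.14, 95% interval -1.45 to -0.85, FDR 7.96e-05). Its promoter holds the sterol regulatory element core printed above.

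Idi1, the isomerase that converts isopentenyl diphosphate to its allylic form, had 75, 92 and 80 counts in KO and 133, 108 and 132 in WT. In CPM this was 1.91, 2.19 and 2.06 in KO and 4.55, 4.77 and 5.13 in WT, with the KO libraries close together and far below every WT library. Its log2 fold change was -1.20 (SE 0.17, 95% interval -1.58 to -0.82, FDR 0.000303), a level 2.30-fold lower in KO, and differed from those of Cyp51 and Hmgcs1 by less than its SE.

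Fdps and Fdft1 stand where the pathway joins isoprenoids, and they had the smallest differences. Fdps, which makes farnesyl diphosphate, the branch point to protein prenylation and ubiquinone, had 149, 191 and 143 counts in KO and 152, 149 and 187 in WT. This was 3.79, 4.55 and 3.68 CPM in KO and 5.20, 6.58 and 7.26 in WT, with KO 2 nearest to WT 1. It was lower by a log2 fold change of -0.58 (SE 0.18, FDR 0.038). It no longer passed when KO 2, KO 3, WT 2 or WT 3 was left out (FDR 0.0969, 0.0507, 0.0501 and 0.0732) and by the DESeq2 Wald test (FDR 0.149), and its value was -0.02 with library size as the only scaling (FDR 0.944). Fdft1, squalene synthase, the first enzyme committed to sterols, had 223, 251 and 222 counts in KO and 218, 159 and 223 in WT. Its 5.68, 5.98 and 5.72 CPM in KO lay below its 7.46, 7.02 and 8.66 in WT, but the log2 difference of -0.40 (SE 0.14, 95% interval -0.69 to -0.11) had an FDR of 0.0596. It passed without WT 2 (FDR 0.0445) and with the 6 libraries as separate samples (FDR 0.0154).

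Reads of 6 of the 7 genes, all but Sqle, may be shared with neighbours, because the sources used here give neither the strand setting of the counting nor how it treated shared reads. In the GENCODE annotation of GRCm38, Fdft1 shares 774 of its 4227 exon bases with Ctsb, a cathepsin on the opposite strand. Ctsb had 1888, 1790 and 1805 counts in KO and 1932, 1358 and 1594 in WT, and was lower in KO (log2 fold change -0.50, FDR 0.00972). Fdps shares 1124 of 4208 exon bases with Gm43738 on its own strand. Hmgcs1 shares 557 of 4594 exon bases, Idi1 323 of 3505 and Lss 381 of 10787, each with a gene model on the opposite strand. Of the overlapping neighbours only Ctsb and Akap9, a neighbour of Cyp51, were listed under these symbols among the counted genes. The part of these overlaps in the differences was not tested.

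Sqle, Lss and Cyp51 act in a row from squalene to the first demethylated sterol. Sqle, the epoxidase that adds oxygen to squalene, had 67, 50 and 62 counts in KO and 100, 54 and 80 in WT. Its level was 1.71, 1.19 and 1.60 CPM in KO and 3.42, 2.38 and 3.11 in WT, with KO 2 and WT 2 the lowest of their groups. Lss, which closes the ring to lanosterol, had 42, 50 and 63 counts in KO and 84, 53 and 62 in WT, or 1.07, 1.19 and 1.62 CPM in KO and 2.87, 2.34 and 2.41 in WT. These were the least abundant of the 7, and rest on at most 100 counts in a library for Sqle and 84 for Lss. The log2 fold change of Sqle was -1.08 (SE 0.23, FDR 0.00463) and that of Lss -1.03 (SE 0.22, FDR 0.00582). Without KO 2 neither passed (FDR 0.0691 for Sqle and 0.0675 for Lss), nor with library size as the only scaling (-0.53, FDR 0.0723 for Sqle and -0.48, FDR 0.106 for Lss). Cyp51, the lanosterol demethylase, had 89, 105 and 99 counts in KO and 166, 109 and 146 in WT. At 2.27, 2.50 and 2.55 CPM in KO and 5.68, 4.81 and 5.67 in WT its groups were far apart, and its log2 fold change was -1.16 (SE 0.16, 95% interval -1.51 to -0.80, FDR 0.000255). Cyp51 shares 166 of 4415 exon bases with Akap9 on the opposite strand, which was higher in KO (log2 fold change 0.72).

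Per length of the longest annotated transcript, Hmgcs1 had the highest level of the 7, with 3.28 CPM per kb in KO and 7.25 in WT. Fdft1 followed with 1.58 in KO and 2.08 in WT, and Fdps with 1.40 in KO and 2.06 in WT. In both groups these last 2 differed by less than the SD of Fdps. Idi1 had 0.69 CPM per kb in KO and 1.57 in WT, Cyp51 0.624 and 1.39, Sqle 0.318 and 0.693, and Lss 0.181 and 0.375, each KO before WT. The order of the 7 was the same in both groups.

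Ratios of raw counts of 2 genes within a library need no scaling between libraries, and were taken for all 21 pairs of the 7 genes. In 7 of the 21 pairs every KO library lay below every WT library, and in 14 the genotypes overlapped. The share over other gene pairs was not computed. Of single tested genes, 19.2% lay lower in every KO library in CPM, which is another measure and not a background for ratios. All 7 pairs that separated were among the 10 ratios of Hmgcs1, Idi1, Sqle, Lss or Cyp51 to Fdft1 or Fdps. Fdft1 and Fdps had the smallest fold changes in these same counts, so this restates those fold changes. Hmgcs1 had 1.97, 1.84 and 2.13 counts per Fdft1 count in KO and 2.90, 4.30 and 3.14 in WT. Cyp51 had 0.399, 0.418 and 0.446 counts per Fdft1 count in KO and 0.761, 0.686 and 0.655 in WT. Idi1 per Fdps was 0.503, 0.482 and 0.559 in KO and 0.875, 0.725 and 0.706 in WT. Sqle per Fdft1 was 0.300, 0.199 and 0.279 in KO and 0.459, 0.340 and 0.359 in WT, also without overlap.

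The 3 of those 10 ratios that overlapped were Lss per Fdft1, Lss per Fdps and Sqle per Fdps. Lss per Fdft1 was 0.188, 0.199 and 0.284 in KO and 0.385, 0.333 and 0.278 in WT, with KO 3 just above WT 3. All 10 ratios among Hmgcs1, Idi1, Sqle, Lss and Cyp51 overlapped, and so did Fdps per Fdft1. Hmgcs1 per Cyp51 was 4.94, 4.41 and 4.78 in KO and 3.81, 6.28 and 4.80 in WT. Fdps per Fdft1 was 0.668, 0.761 and 0.644 in KO and 0.697, 0.937 and 0.839 in WT. With 2 samples a group an exact permutation test of a ratio cannot give a two-sided p below 0.333, so the ratios are given as values, and the pairs were grouped after the fold changes were seen.

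**Figure D2:**
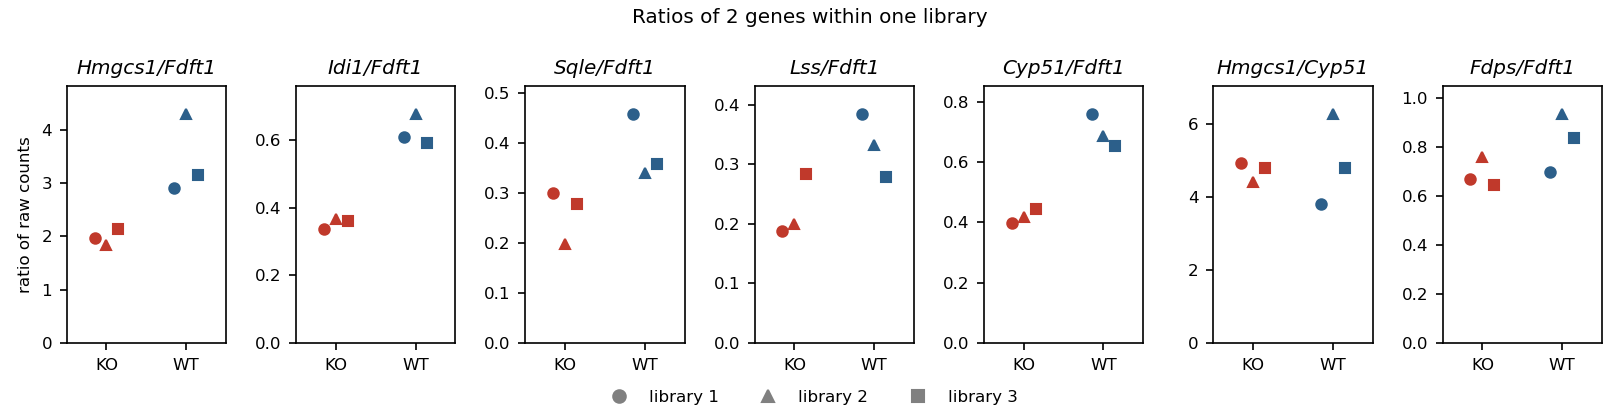
Ratios of the raw counts of a pair of genes within each library (linear axes from 0), KO left of WT, with 1 symbol per library. The 5 panels on the left divide by Fdft1 and show KO below WT without overlap for all but Lss, and in the other 2 the libraries overlap.

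Of the other enzymes of the route, 2 fell and 1 rose. Of 4 enzymes before squalene from a list of Acat2, Mvk, Pmvk and Mvd, 0 passed by edgeR, 1 was lower at an unadjusted p under 0.05, and 0 passed by DESeq2 or limma-voom. Pmvk, a kinase of mevalonate phosphate and the most abundant of them in KO, averaged 2.97 ± 0.397 CPM in KO and 3.50 ± 0.254 in WT (log2 difference -0.23, edgeR FDR 0.438). Mvd, which decarboxylates mevalonate diphosphate, was the closest to the threshold, with 2.54 ± 0.288 CPM in KO and 3.58 ± 0.133 in WT (log2 difference -0.49, edgeR FDR 0.0819). Of 8 enzymes from lanosterol to cholesterol 2 fell, 1 rose and 5 did not pass, beside 8.48% of all tested genes lower and 9.15% higher. The median log2 difference was -0.38 over these 8 and -0.30 over the 4 before squalene, and the lists were not tested against each other. Msmo1, a sterol methyl oxidase, had 3.57, 2.71 and 2.86 CPM in KO and 6.64, 5.91 and 6.87 in WT (-1.13, FDR 0.000259). Sc5d, a sterol desaturase, had 3.46, 3.83 and 2.83 CPM in KO and 5.03, 5.21 and 6.95 in WT (-0.70, FDR 0.0127). Neither overlapped between genotypes. Sc5d did not pass by the DESeq2 Wald test (FDR 0.0549) or with library size as the only scaling (FDR 0.518). The exception was Lbr, a receptor of the nuclear lamina that also has sterol reductase activity, which rose by 0.75 (FDR 0.00255) with 15.2, 12.9 and 15.4 CPM in KO and 7.32, 8.30 and 10.3 in WT. Tm7sf2, the other reductase of that step, had a difference of 0.19 (FDR 0.721).

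**Figure D3:**
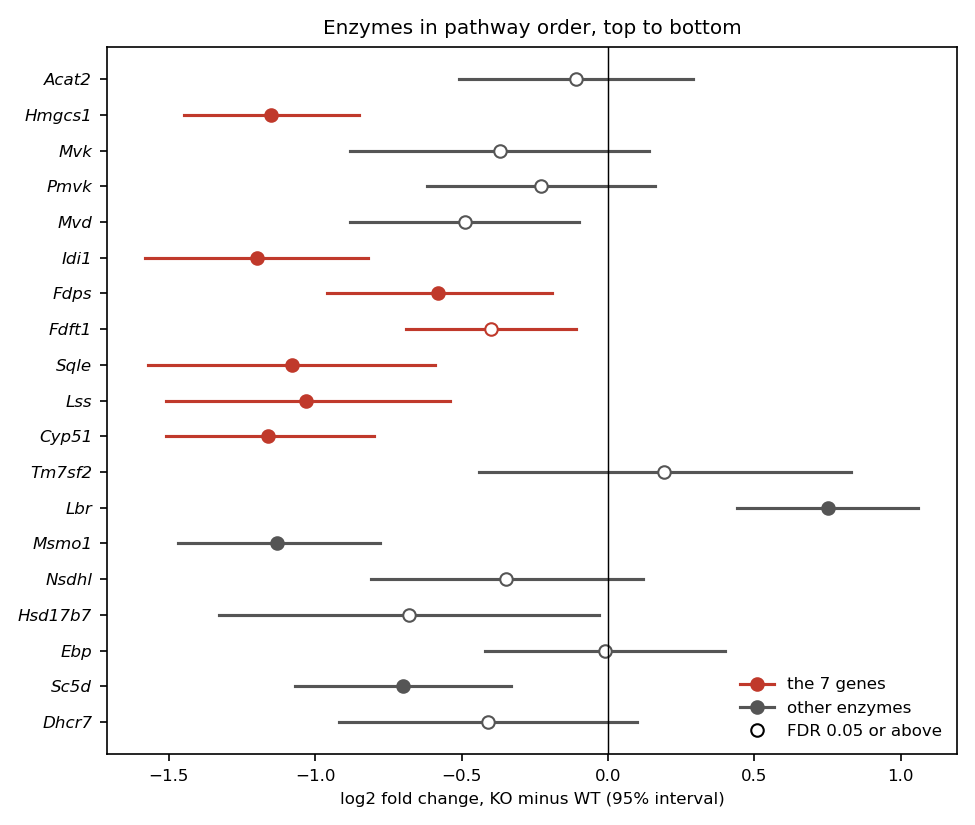
Log2 fold change (KO minus WT) with its 95% interval for 19 enzymes of cholesterol synthesis, ordered from acetyl-CoA at the top to cholesterol at the bottom, the 7 genes in red, with open symbols for an FDR of 0.05 or above. Values near or below -1 are found for Hmgcs1, Idi1, Sqle, Lss, Cyp51 and Msmo1, and Lbr alone lies above 0 with a filled symbol.

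Of 7 genes that regulate SREBP in response to sterols, Srebf2 and Insig1 fell and 5 did not pass, beside 8.48% of all tested genes lower. Srebf2, the gene of SREBP2 itself, had 3.72, 4.02 and 4.43 CPM in KO and 7.60, 7.94 and 4.86 in WT, with WT 3 close to the KO libraries (log2 fold change -0.77, SE 0.15, FDR 0.0033). Its call was lost without KO 2 (FDR 0.0536) and with library size as the only scaling (-0.22, FDR 0.291). Insig1, a retention protein of SCAP that SREBP2 induces, had 3.69, 3.83 and 3.45 CPM in KO and 6.98, 6.40 and 7.61 in WT (-0.93, FDR 0.000614, and -0.37, FDR 0.067 with library size as the only scaling). Its relative Insig2 (-0.17, FDR 0.538), Scap (-0.24, FDR 0.315), Srebf1 (-0.19, FDR 0.498) and the proteases Mbtps1 (-0.07, FDR 0.815) and Mbtps2 (0.39, FDR 0.263) did not pass.

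Of 16 genes of sterol uptake, transport and export 4 rose and 12 did not pass by edgeR, beside 9.15% of all tested genes higher. Of 4 uptake genes 2 rose. Vldlr, a receptor of triglyceride-rich lipoproteins, had 13.9, 15.1 and 14.8 CPM in KO and 4.79, 5.91 and 6.10 in WT (log2 fold change 1.43, FDR 9.04e-06). Scarb1, a receptor of high-density lipoprotein, rose by 0.36 (FDR 0.0433), but not when KO 1, KO 2, WT 1 or WT 3 was left out (FDR 0.0658, 0.252, 0.054 and 0.0852) nor by DESeq2 (FDR 0.2). Of 7 genes of transport and storage 1 rose, Lipa, the lysosomal lipase that frees cholesterol from its esters (0.61, FDR 0.0082, and 0.208 without KO 2). Of 5 genes of export and LXR signalling 1 rose, Mylip, a ubiquitin ligase that marks lipoprotein receptors for degradation, with 44.7, 50.1 and 46.8 CPM in KO and 19.5, 17.3 and 18.3 in WT (1.36, FDR 3.83e-06). Of 9 genes of the isoprenoid branches that leave at farnesyl diphosphate 1 fell, a share near the 8.48% of all tested genes. This was Fnta, a prenyltransferase subunit (-0.39, FDR 0.0423). That call was lost without KO 1, KO 2 or WT 3 (FDR 0.0605, 0.363 and 0.0833) and by DESeq2 (FDR 0.206), and its value was 0.16 with library size as the only scaling.

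Of 8 genes of fatty acid synthesis under the related factor SREBP1, 4 fell and 4 did not pass, beside 8.48% of all tested genes lower. Their median log2 fold change was -0.48. Scd2, a fatty acid desaturase, had 28.7, 29.1 and 30.3 CPM in KO and 65.0, 66.6 and 61.3 in WT (-1.14, FDR 1.26e-05). Elovl6, an elongase (-1.35), Fasn, fatty acid synthase (-0.97), and Scd1 (-0.57) also fell. Scd1 did not pass without KO 2 (FDR 0.0661) or with library size as the only scaling (-0.02, FDR 0.887). Acly, which supplies acetyl-CoA to both routes, averaged 15.3 ± 0.275 CPM in KO and 13.6 ± 0.759 in WT (edgeR FDR 0.323).

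Over the 6 libraries, the genes other than the 7 whose level followed the mean profile of the 7 most closely included H2-Eb1, a chain of an MHC class II molecule, Pacs2, a sorting protein, and Il33, a cytokine. Likeness was the root-mean-square difference of log2 CPM centred on each gene, which was 0.041 for H2-Eb1, 0.048 for Pacs2 and 0.054 for Il33. Of the 7 genes themselves, Cyp51 was nearest to their mean profile, at 0.108, and Fdft1 farthest, at 0.228. The outside genes were the nearest of 4976 candidates with a mean of at least 5 CPM. The 7 were neither picked by likeness nor held to that limit, so their values cannot be ranked against those of the outside genes. These values describe 6 libraries that fall into 2 genotypes, so any gene with a fall of like size comes near.

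Markers of other tissues also differed between genotypes, in both directions, beside 8.48% of all tested genes lower and 9.15% higher. All 12 Schwann cell and myelin markers fell, and their summed level was 506 to 524 CPM in KO and 1460 to 1510 in WT, with none at 0. The 7 genes summed to 5.39, 5.65 and 5.61 counts per 100 counts of these markers in KO and 3.37, 3.91 and 4.07 in WT, so they were higher in KO relative to the myelin markers. All 12 tested salivary gland markers rose, from a list whose summed level was 531 to 568 CPM in KO and 42 to 45.7 in WT, with Prol1 at 0 in every WT library and Lpo in WT 3. Of 14 fast muscle markers 6 rose (8430 to 9730 CPM in KO and 5550 to 7630 in WT), with none at 0. Of 9 tested white adipocyte markers 2 rose and 5 fell, with a median log2 fold change of -1.13, and the summed level, most of it Fabp4 (mean 319 CPM in KO and 338 in WT), overlapped, at 371 to 440 CPM in KO and 339 to 475 in WT, with Lep and Retn at 0 in KO 3. The part of these shifts in the levels of the 7 genes was not tested.

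**Figure D4:**
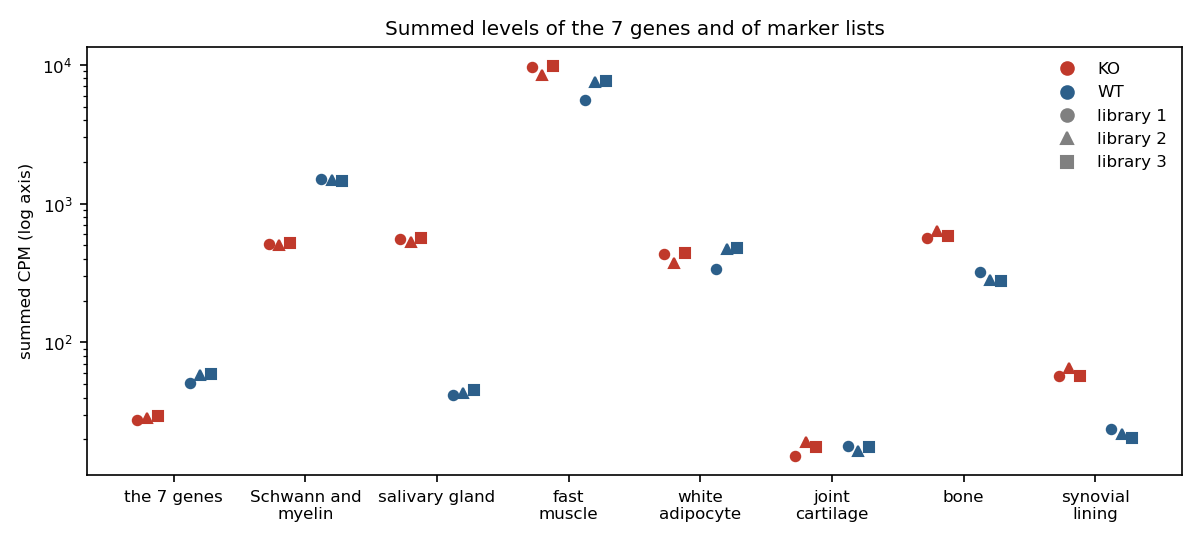
Summed CPM (log axis) of the 7 genes and of marker lists for tissues that the joint sample could hold, with 1 symbol per library and KO left of WT. The sums of the 7 genes and of the Schwann and myelin markers lie lower in KO. Those of salivary, fast muscle, bone (mostly Col1a1) and synovial (mostly Prg4) markers lie higher. Those of adipocyte (mostly Fabp4) and cartilage markers overlap.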

How the data were processed

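Gene expression was measured by RNA sequencing of poly(A)-selected RNA. The authors deposited raw read counts per gene symbol, 1 column per library, not normalized. HISAT2 2.1.0 and StringTie 2.1.5 with build mm39 appear in the submitters' processing notes, without their roles. The sources used here do not give the annotation, the strand setting or the treatment of shared reads.

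In each library 4.69 to 5.06 times as many genes had 2 counts as had 1, so mates appear to be counted separately. For library pairs of a group, the median ratio of observed variance to that of sampled read pairs was 0.94 for KO 1 and KO 3, 0.96 for WT 2 and WT 3 and 1.31 to 1.63 for the others, so pairs at or under 1.1 were summed. Counts were fitted with edgeR 4.0.16 in R 4.3.3 (filterByExpr with a minimum count of 10, TMM factors, robust quasi-likelihood fit, group as the term), with Benjamini-Hochberg adjustment over all 14632 genes tested. The code was tested on simulated data. SE is the absolute change over the square root of F. CPM uses the factor of the fitted sample, and likeness adds 0.5 CPM and takes genes of at least 5 CPM. Lengths, exon overlaps and promoters come from GENCODE and RefSeq on GRCm38, another build than the counts.

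The text names the 7 genes, list members that passed (or, where none passed, the most abundant), and the 5 nearest profiles. Members and lists were chosen with earlier results of these data known. Genes named outside that rule are Igf2bp2, Ctsb, Gm43738, Akap9, Col9a1, Col11a1, Col1a1, Runx2, Prg4, Fabp4, Mvd, Tm7sf2 and Acly. The markers at 0 and the regulators that did not pass are also outside it. All of these were chosen after their values were seen. Some genes of the pathway and some that the rule takes are not reported here. DESeq2 1.42.0 and limma 3.58.1 served as alternatives.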

Additional observations from a re-analysis of the deposited data

How the results depend on the processing

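The 6 calls among the 7 genes and the calls in the other pathway lists (5 higher and 9 lower) were recomputed under 16 settings planned with earlier results known and 1 added after seeing the data. Hmgcs1, Idi1 and Cyp51 passed as lower in all 17. Over all genes 2580 passed. The DESeq2 Wald test gave 1634. Leaving out a library gave 1149 to 2434 genes, 3 to 6 of the 7 genes, and 3 to 5 pathway genes higher, with the lowest value of each without KO 2. With library size as the only scaling, the added setting, 7734 genes, 3 of the 7, 26 pathway genes higher and 4 lower passed. Fdft1 (0.15) and Fnta (0.16) reversed. This setting puts the median of all genes at 0.54. Its library sizes include the mitochondrial counts, which were 85.3% to 86% of all counts in KO and 90.6% to 90.8% in WT. With 6 separate libraries 3452 genes and all 7 passed, and with the replicate number as a block 2941 and all 7. Deviations from the group mean had correlations of -0.19, -0.29 and 0.20 between same-numbered libraries, against 0.39 between KO 2 and WT 1. Such deviations of 3 libraries are tied together, so these values cannot show whether a number marks a pair. The cause of the shifts between settings was not tested. Sqle and Lss rest on the fewest counts, and both passed with counts halved (FDR 0.00435 and 0.00492), while Fdps passed in 11 of the 17 settings and Fdft1 in 6.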

Other observations

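Pggt1b, the catalytic subunit of a prenyltransferase that uses the isoprenoid made beyond farnesyl diphosphate, had 43, 411 and 527 counts in the KO libraries (1, 2 and 3), against 42, 230 and 260 in the WT libraries (1, 2 and 3). It was thus low in library 1 of each genotype and no other gene of its list had that pattern. Its difference between genotypes had an SE of 1.09 (log2 fold change 0.47, edgeR FDR 0.845). Of the 14632 tested genes, 4 had counts in library 1 of each genotype at least 4 times below those in libraries 2 and 3. KO 1 and KO 3, summed because the median gene differed by less than counting noise, were thus far apart at this gene. The gene was chosen after its values were seen.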
